A study of Mus musculus with 10 samples.

Results

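The genes that carry bile acids through the ileal enterocyte and report on that flux to the liver form a set of 8 genes here. They are Slc10a2, Fabp6, Osta, Ostb, Nr1h4, Gpbar1, Fgf15 and Nr0b2, taken by symbol from the 36401 genes in the deposited count files, and each symbol had 1 gene ID. Conjugated bile acids enter the enterocyte of the terminal ileum through the apical sodium-dependent transporter (Slc10a2), are bound in the cytosol by the ileal bile acid binding protein (Fabp6) and leave on the basolateral side through the heterodimer of the organic solute transporters alpha and beta (Osta and Ostb). Inside the cell they activate the nuclear receptor FXR (Nr1h4), which induces the hormone FGF15 (Fgf15) and, in liver and gut, the corepressor SHP (Nr0b2). FGF15 travels to the liver and lowers bile acid synthesis. TGR5 (Gpbar1) is a membrane receptor for bile acids, known from macrophages, enteroendocrine cells, enteric neurons and muscle.

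RNA of the terminal ileum was sequenced from male C57Bl6 mice that had eaten a diet with 60 kcal% fat for 6 weeks before an operation at 8 weeks of age. In the 5 mice of the VSG group the operation was a vertical sleeve gastrectomy, which removes most of the stomach along the greater curvature, and food was then given ad libitum. The 5 mice of the SPF group had a sham operation and were pair-fed to the VSG mice. Each library is labelled as coming from a mouse, with no word on pooling. Both groups received liquid Osmolite around surgery and were sampled about 8 weeks later, fasted overnight and then given 0.5 mL Osmolite by gavage 1 hour before, so every level below is one of re-fed ileum. Total estimated counts ran from 15364651 to 30401105 in VSG libraries and from 16848364 to 34058181 in SPF libraries. Levels are given as normalised CPM, counts scaled to library size with TMM factors, and p-values measure only the spread between these 10 samples.

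Markers of the upper small intestine split the libraries, although all are labelled as ileum, and most members differed across the same split. The share of all genes that differ across it was not computed, so whether the members stand out in this is not known. The mean log2 CPM of 8 upper small intestine markers was 1.41, 4.85, 1.99, 2.19 and 2.17 in VSG 1 to 5 and 1.76, 4.43, 2.35, 6.47 and 1.79 in SPF 1 to 5. VSG 2, SPF 2 and SPF 4 thus stood above a wide gap, and 4 VSG and 3 SPF libraries stood below it. Gata4, a transcription factor made in the proximal gut, had levels of 1.72, 121, 6.28, 5.62 and 5.00 CPM in VSG and of 1.95, 109, 2.75, 183 and 3.04 CPM in SPF. For 5 of the 8 markers the lowest of the 3 libraries lay over the highest of the 7. The gap was drawn in the mean of these same markers, so their separation across it is largely built in and is no separate support for the split. Pdx1, a defining factor of the duodenum, stood at 14.5 CPM in SPF 4 and at 0 to 0.354 CPM in the other 9. Slc40a1 ran counter to this, with 3.68 to 13.6 CPM above the gap and 35.8 to 98.2 CPM below it. Cybrd1 overlapped, at 5.01 to 5.75 CPM above the gap and 3.58 to 7.04 CPM below it. The summed level of 9 distal small intestine genes other than the members was 2111 to 5208 CPM in VSG and 945.5 to 4635 CPM in SPF. This sum overlapped across the gap, at 945.5 to 3136 CPM in the 3 libraries and 3004 to 5208 CPM in the 7, with SPF 4 lowest and SPF 2 above SPF 5. Between the groups the marker mean was 2.52 ± 1.34 in VSG and 3.36 ± 2.05 in SPF (SD, n = 5 each), a difference of -0.84 that did not pass an exact two-sided permutation test (p = 0.5397). The members past the filter on low counts are therefore compared in all 10 libraries and again in the 7 below the gap.

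Upstream sequences are shown for genes on both sides of the contrast that the results turn on. Fabp6, Slc10a2 and Ostb were low in the 3 libraries above the gap. Nr0b2, which did not pass the filter on low counts, was higher there, on 22 counts in VSG 2, 22 in SPF 2 and 104 in SPF 4. The sequences lie within 250 bases upstream of the RefSeq start of the gene, are RefSeq sequences of GRCm38.p6, and run 5′ to 3′ on the gene's strand. Those of Fabp6, Slc10a2 and Nr0b2 are trimmed to the bases ahead of every annotated start. Of Ostb the 29 bases around its match are shown, without that trimming. Of the 8 members, 7 had a RefSeq window, all but Fgf15, and its whole 250 bases were searched before any trimming. Matches in Ostb, and in genes whose sequence is not shown, may thus lie inside a transcript with an earlier annotated start. Capitals mark matches, on either strand, to a motif of FXR with its partner RXR in Fabp6 and Ostb (GGTNA, any 1 base, TNACC), a palindrome of HNF1 and a GATA site in Slc10a2 (TTAAT, any 1 base, ATTAA, and AGATAA or AGATAG or TGATAA or TGATAG), and a GATA site and then 2 core sites of NR5A2 (TCAAGG) in Nr0b2.
Fabp6, chr11:43601563-43601812, minus strand: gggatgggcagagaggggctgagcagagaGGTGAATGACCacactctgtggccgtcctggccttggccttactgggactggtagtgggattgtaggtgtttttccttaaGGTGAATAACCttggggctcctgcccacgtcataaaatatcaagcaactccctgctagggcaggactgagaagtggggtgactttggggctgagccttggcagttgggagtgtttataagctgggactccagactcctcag
Slc10a2, chr8:5105352-5105537, minus strand: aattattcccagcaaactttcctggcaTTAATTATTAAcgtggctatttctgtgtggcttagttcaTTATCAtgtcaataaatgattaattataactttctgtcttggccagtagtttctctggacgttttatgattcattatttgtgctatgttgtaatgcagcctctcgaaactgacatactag
Ostb, chr9:65422940-65422968, minus strand: cattcgtggGGTCATTCACCctggactgg
Nr0b2, chr4:133553126-133553375, plus strand: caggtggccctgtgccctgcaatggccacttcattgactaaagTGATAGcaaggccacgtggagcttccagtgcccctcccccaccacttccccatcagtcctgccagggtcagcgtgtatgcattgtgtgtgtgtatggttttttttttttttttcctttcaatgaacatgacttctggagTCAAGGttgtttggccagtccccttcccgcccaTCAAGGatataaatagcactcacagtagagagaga
The FXR motif occurred in 0.219% of 32851 promoter windows of the same length. Among these 7 genes it was found 2 times in Fabp6, at 221 to 211 and 141 to 131 bases upstream, and 1 time in Ostb, at 186 to 176 bases upstream. The HNF1 palindrome, in 0.116% of windows, was found among the 7 in Slc10a2 only, and there it overlapped a match to the single HNF1 site GTTAAT, which is in 6.43% of windows and was also found in Nr1h4. GATA sites were in 26.5% of windows, and among the 7 genes in Slc10a2, Osta, Nr1h4, Nr0b2 and Gpbar1. The CDX letters TTTATG, in 10.8%, were found in Slc10a2, Fabp6 and Nr1h4, and the NR5A2 core, in 12.5%, in Nr0b2. The motifs were chosen after these sequences had been seen, and a match describes letters, not binding.

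Slc10a2 (ENSMUSG00000023073), the uptake transporter, was abundant in 7 libraries and low in 3. It stood at 357, 11.3, 399.7, 519 and 436 CPM in VSG 1 to 5 and at 466.2, 15.4, 196, 3.90 and 192 CPM in SPF 1 to 5. VSG 2, SPF 2 and SPF 4 were the low libraries, and the groups overlapped. The median of the 7 libraries below the gap was 35.4 times that of the 3 above it. Means were 345 ± 196 CPM in VSG and 175 ± 187 CPM in SPF (SD, n = 5 each), with a log2 fold change of 0.98 ± 1.08 (SE, 95% interval -1.40 to 3.36, edgeR adjusted p = 0.977). Within the 7 libraries the log2 fold change was 0.59 (95% interval -0.16 to 1.34, edgeR adjusted p = 0.751), and there SPF 1 overlapped the 4 VSG libraries while SPF 3 and SPF 5 lay under all of them. In whole tissue, fewer cells of a type and less RNA per cell cannot be told apart, for this gene as for the others.

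Fabp6 (ENSMUSG00000020405), the cytosolic carrier, had the highest level per transcript length of the 8 genes and the widest split between libraries. It stood at 3369, 38.9, 3940, 4506 and 4609 CPM in VSG 1 to 5 and at 2556, 57.2, 6106, 62.0 and 2684 CPM in SPF 1 to 5. The 3 low libraries were the same as for Slc10a2, SPF 3 was highest of all, and the groups overlapped. The medians of the 7 and the 3 libraries differed 68.9-fold. Means were 3293 ± 1885 CPM in VSG and 2293 ± 2487 CPM in SPF (SD, n = 5 each). The log2 fold change was 0.52 ± 1.22 (SE, 95% interval -2.16 to 3.20, edgeR adjusted p = 0.985), 0.12 in the 7 libraries (95% interval -0.66 to 0.90, edgeR adjusted p = 0.945) and -0.24 with the upper small intestine marker level as a covariate.

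Osta (ENSMUSG00000035699) and Ostb (ENSMUSG00000053862), the subunits of the basolateral exporter, kept a substantial level in every library. Osta stood at 1464, 343, 1126, 1804 and 1753 CPM in VSG 1 to 5 and at 1148, 373, 2087, 227 and 948 CPM in SPF 1 to 5. Ostb stood at 404, 90.3, 266, 334 and 376 CPM in VSG and at 256, 86.5, 538, 59.2 and 229 CPM in SPF. For both subunits the 3 libraries above the gap were lowest and SPF 3 was highest, and the groups overlapped. The medians of the 7 and the 3 libraries differed 4.26-fold for Osta and 3.86-fold for Ostb, less than for Slc10a2 and Fabp6. Osta averaged 1298 ± 598 CPM in VSG and 956 ± 739.5 CPM in SPF (SD, n = 5 each), with a log2 fold change of 0.44 ± 0.59 (SE, 95% interval -0.85 to 1.73, edgeR adjusted p = 0.977). Ostb averaged 294 ± 125 CPM in VSG and 234 ± 190.4 CPM in SPF, with a log2 fold change of 0.33 ± 0.56 (SE, 95% interval -0.91 to 1.57, edgeR adjusted p = 0.982). In the 7 libraries the log2 fold changes were 0.14 for Osta and 0.02 for Ostb, and with the marker covariate that of Ostb was -0.03. Osta overlaps Pcyt1a and Ostb overlaps Rasl12 on the opposite strand in GENCODE M21, and the sources used here do not give whether reads were counted by strand.

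The 2 subunits are needed together for transport, and their counts kept close proportion. Ratios were computed for few pairs of members, and whether the closeness is particular to the subunits was not tested. Nr1h4, which is no subunit, differed between the 7 and the 3 libraries by a similar factor, 4.59-fold against 4.26-fold for Osta and 3.86-fold for Ostb. The ratio of Osta to Ostb counts within a library had a log2 value of 2.10 ± 0.23 in VSG, from 1.86 to 2.43, and of 2.04 ± 0.10 in SPF, from 1.94 to 2.17 (SD, n = 5 each). In the 3 libraries in which both genes were low it was 1.93 (VSG 2), 2.11 (SPF 2) and 1.94 (SPF 4). In the 7 libraries below the gap it ran from 1.86 to 2.43. The ratio of Slc10a2 to Fabp6 counts varied more, with a log2 value of -2.97 ± 0.67 in VSG and -3.42 ± 1.24 in SPF (SD, n = 5 each). Below the gap Slc10a2 counts were 9.45% to 11.5% of Fabp6 counts in VSG 1, 3, 4 and 5. In SPF 1, 3 and 5 they were 18.2%, 3.22% and 7.14%. Above the gap they were 29% in VSG 2, 27% in SPF 2 and 6.28% in SPF 4. A difference in spread between the groups was not tested.

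**Figure D1:**
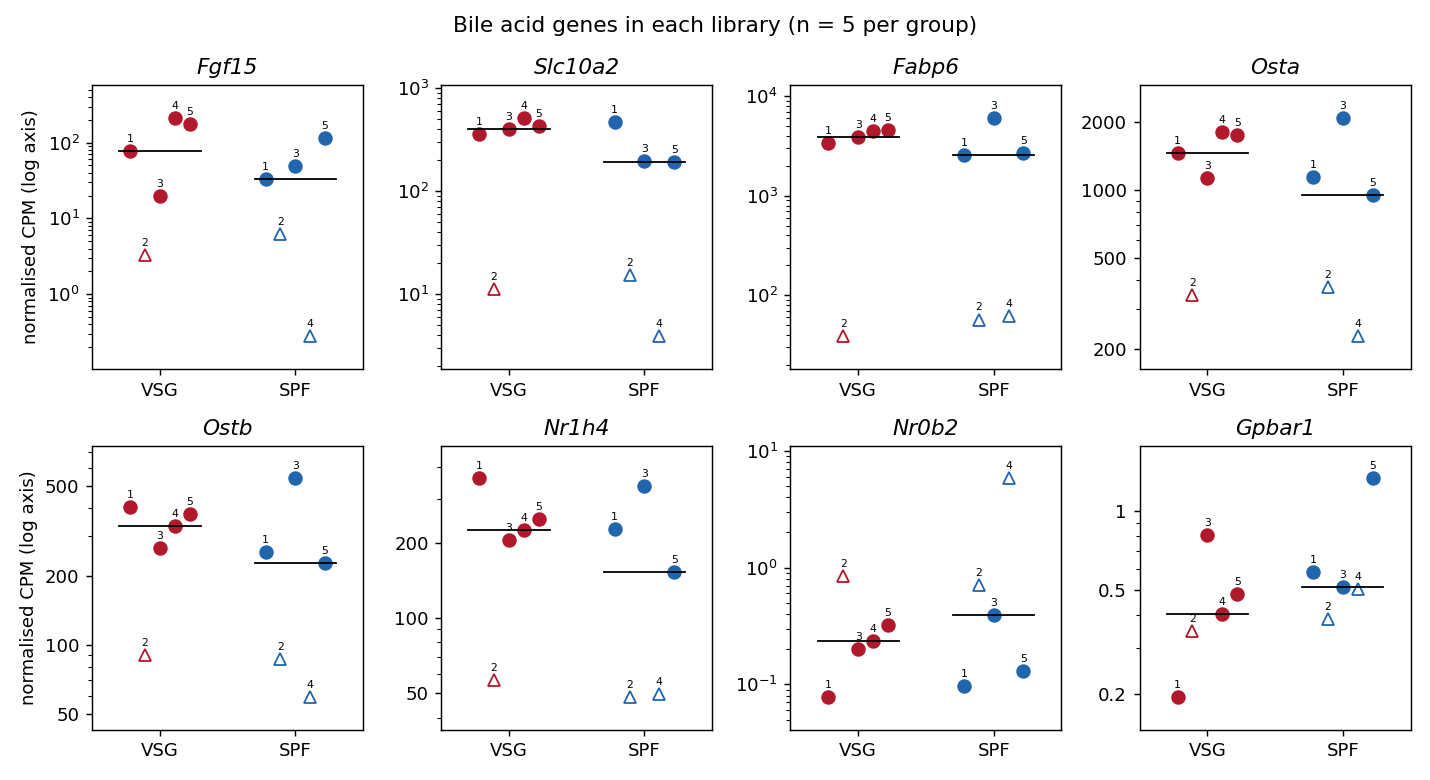
Normalised CPM (log axis, a different range in each panel) of the 8 bile acid genes in VSG and SPF libraries, each point 1 library with its replicate number and the black line the group median; open triangles are the 3 libraries above the gap in upper small intestine markers and filled circles the other 7. For Fgf15, Slc10a2, Fabp6, Osta, Ostb and Nr1h4 the triangles lie under all circles, for Nr0b2 they lie above them, and for Gpbar1 they lie among them. The share of all genes with such a separation of triangles and circles was not computed.

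Nr1h4 (ENSMUSG00000047638), which encodes FXR, stood at 361, 56.6, 205, 225 and 249 CPM in VSG 1 to 5 and at 228, 48.4, 336, 49.5 and 153 CPM in SPF 1 to 5. VSG 2, SPF 2 and SPF 4 were again lowest, VSG 1 was highest, and the groups overlapped. The medians of the 7 and the 3 libraries differed 4.59-fold, close to Osta and Ostb. Means were 219 ± 109 CPM in VSG and 163 ± 123 CPM in SPF (SD, n = 5 each), and the log2 fold change was 0.43 ± 0.58 (SE, 95% interval -0.85 to 1.71, edgeR adjusted p = 0.977). In the 7 libraries it was 0.13 (95% interval -0.55 to 0.80).

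Gpbar1 (ENSMUSG00000064272), which encodes TGR5, was barely detected in whole ileum and did not follow the other genes. It stood at 0.195, 0.349, 0.810, 0.404 and 0.480 CPM in VSG and at 0.584, 0.388, 0.512, 0.501 and 1.33 CPM in SPF, on 5, 9, 12, 12 and 12 counts in VSG and 18, 12, 13, 9 and 51 counts in SPF. The highest value was in SPF 5, the libraries above and below the gap overlapped, and so did the groups. Means were 0.448 ± 0.228 CPM in VSG and 0.662 ± 0.378 CPM in SPF (SD, n = 5 each), and the log2 fold change was -0.63 ± 0.44 (SE, 95% interval -1.59 to 0.34, edgeR adjusted p = 0.977). Without SPF 5 it was -0.18. The 7 smooth muscle markers summed to 668 to 1432 CPM in VSG and to 277 to 3591 CPM in SPF, highest in SPF 5, all 7 were detected in every library, and 0 of 7 passed the adjusted threshold. Macrophage markers summed to 250.2 to 786 CPM in VSG and 263 to 902 CPM in SPF, highest in SPF 3. The part of either cell type in the Gpbar1 level was not tested.

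Fgf15 (ENSMUSG00000031073), the hormone that FXR induces, had the widest range of the 8 genes. It stood at 77.0, 3.26, 19.8, 214 and 177 CPM in VSG 1 to 5 and at 33.5, 6.26, 49.3, 0.278 and 115 CPM in SPF 1 to 5. SPF 4 had 5 counts, for which the exact Poisson 95% interval is 1.62 to 11.7 counts, or 0.0904 to 0.65 CPM. The 3 libraries above the gap were lowest, VSG 4 was highest, and the groups overlapped. The medians of the 7 and the 3 libraries differed 23.6-fold. Fgf15 overlaps the annotated antisense genes Gm26793 and Gm39119, whose reads cannot be told apart from its own without strand.

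Between the groups Fgf15 averaged 98.2 ± 93.8 CPM in VSG and 40.9 ± 46.0 CPM in SPF (SD, n = 5 each). Its log2 fold change was 1.26 ± 1.18 (SE, 95% interval -1.33 to 3.86, edgeR adjusted p = 0.977). This was the largest fold change of the 7 members tested, and also had the second widest interval, after Fabp6. Within the 7 libraries Fgf15 averaged 122 ± 89.3 CPM in VSG (n = 4) and 65.9 ± 43.2 CPM in SPF (n = 3), a log2 fold change of 0.89 (95% interval -0.76 to 2.54, edgeR adjusted p = 0.813). Even there it ranged 10.8-fold, with a coefficient of variation of 75.8%, against 31.3% for Fabp6 and 35% for Slc10a2.

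Set against the other ileal genes of the same library, Fgf15 still varied. Its counts were 2.29%, 8.37%, 0.504%, 4.74% and 3.85% of Fabp6 counts in VSG 1 to 5 and 1.31%, 10.9%, 0.807%, 0.449% and 4.28% in SPF 1 to 5. VSG 2 and SPF 2, both above the gap, had the highest shares and SPF 4 the lowest. The log2 ratio of Fgf15 to Fabp6 was -5.15 ± 1.54 in VSG and -5.75 ± 1.86 in SPF, and that of Fgf15 to Slc10a2 was -2.18 ± 1.26 in VSG and -2.33 ± 1.42 in SPF (SD, n = 5 each). Both group differences were smaller than the spread between libraries.

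**Figure D2:**
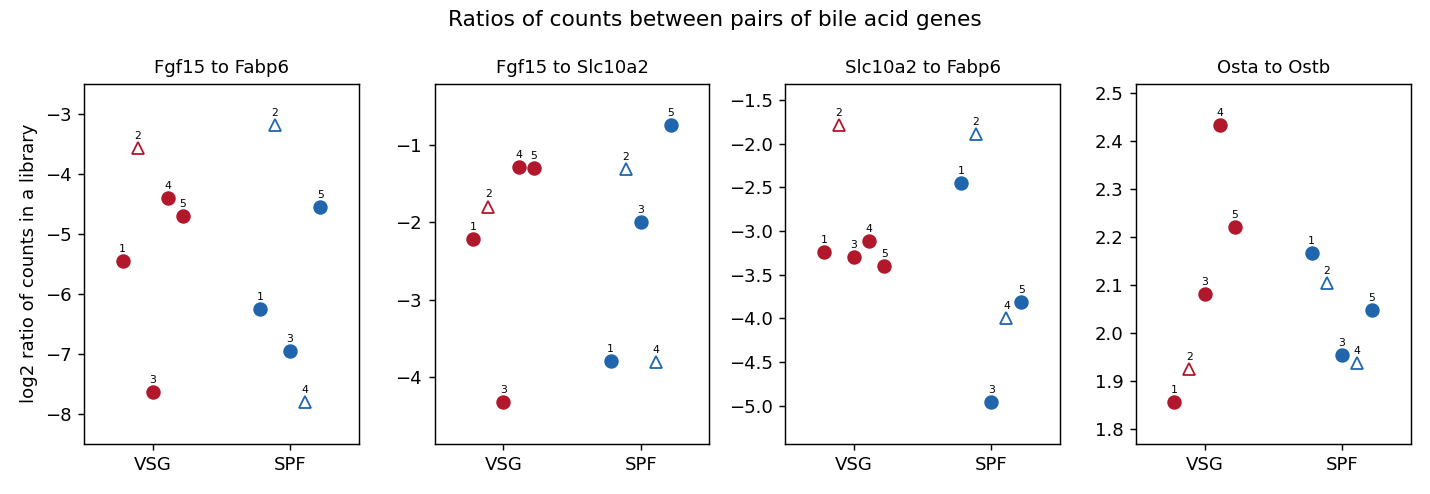
Log2 ratio of counts between pairs of bile acid genes within each library (a different range in each panel), VSG and SPF, with symbols and numbers as in the plot of CPM by library. Osta to Ostb stays between 1.86 and 2.43 in all 10 libraries, whereas Fgf15 to Fabp6 runs from -7.80 to -3.19.

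Nr0b2 (ENSMUSG00000037583), which encodes SHP, was near the limit of detection and did not pass the filter on low counts. It stood at 0.0781, 0.853, 0.203, 0.236 and 0.320 CPM in VSG 1 to 5 and at 0.0974, 0.710, 0.393, 5.79 and 0.130 CPM in SPF 1 to 5, on 2, 22, 3, 7 and 8 counts in VSG and 3, 22, 10, 104 and 5 counts in SPF. Unlike Fgf15, it was highest in VSG 2, SPF 2 and SPF 4, the libraries in which Slc10a2, Fabp6 and Nr1h4 were lowest, and SPF 4 alone held 104 counts. The exact Poisson 95% intervals of VSG 2 (0.535 to 1.29 CPM) and SPF 2 (0.445 to 1.08 CPM) overlapped that of SPF 3 (0.189 to 0.724 CPM). Means were 0.338 ± 0.301 CPM in VSG and 1.42 ± 2.45 CPM in SPF (SD, n = 5 each). Within the 7 libraries, which leave out VSG 2, SPF 2 and SPF 4, they were 0.209 ± 0.100 CPM in VSG (n = 4) and 0.207 ± 0.162 CPM in SPF (n = 3). In an edgeR fit of all 10 libraries without the filter the log2 fold change was -1.98 (95% interval -4.23 to 0.26, adjusted p = 0.819).

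Of the 8 members 7 passed the filter, and 0 of them were called between VSG and SPF at an adjusted p under 0.05, with 0 of 7 also at an unadjusted p under 0.05. Over all 15678 genes tested edgeR called 0%, with 595 at an unadjusted p under 0.05. DESeq2 called 11 genes, none of them a member, and limma-voom called 0. The direction was higher in VSG for 6 members and lower for Gpbar1, with a median log2 fold change of 0.44, against -0.05 over all genes. Of all genes 6574 were higher and 9104 lower. The 6 members were lowest in the same libraries, VSG 2, SPF 2 and SPF 4, so their directions are not separate results. In the 7 libraries the log2 fold changes of Fabp6, Osta, Ostb and Nr1h4 were 0.12, 0.14, 0.02 and 0.13. In no member did the VSG and SPF libraries separate without overlap, which 0.549% of all genes did. In the 7 libraries 0 of the members were called, against 0% of 15911 genes (1107 at an unadjusted p under 0.05), and again no member separated the groups, against 8.12% of genes.

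**Figure D3:**
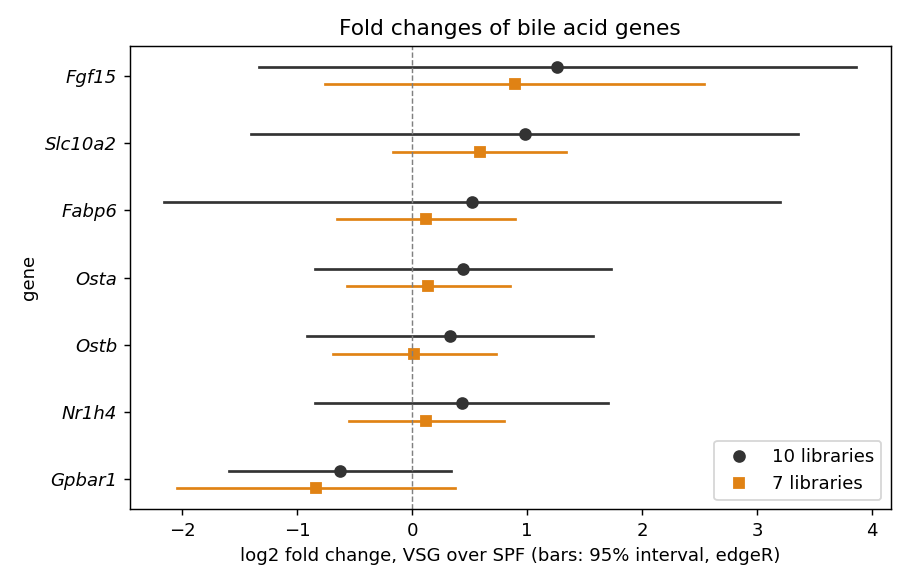
Log2 fold change of VSG over SPF for the 7 bile acid genes past the filter, with 95% intervals from edgeR, over all 10 libraries (black circles) and over the 7 libraries below the gap (orange squares). Every interval includes 0. In the 7 libraries the interval of Gpbar1 is wider and those of all the other genes shown are narrower.

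Per exon length (RPKM computed from the normalised counts, exon lengths from GENCODE M21), the levels put the 8 genes in an order that the groups share for the 6 most abundant. Fabp6 led, at 6874 ± 3936 in VSG and 4787 ± 5192 in SPF. Ostb stood at 415 ± 177 in VSG and 329.6 ± 269 in SPF, and Osta at 406 ± 187 in VSG and 299 ± 231 in SPF. The means of the 2 subunits were thus close in each group, and a difference within libraries was not tested. Nr1h4 stood at 95.3 ± 47.4 in VSG and 70.7 ± 53.3 in SPF, and Slc10a2 at 83.0 ± 47.1 in VSG and 42.1 ± 45.1 in SPF. In the libraries above the gap Nr1h4 was at 21.0 to 24.6 and Slc10a2 at 0.939 to 3.72. Below the gap their ranges overlapped, at 66.4 to 156.7 and 46.2 to 125. Fgf15 followed at 32.1 ± 30.7 in VSG and 13.4 ± 15.04 in SPF. Gpbar1, at 0.416 in VSG and 0.616 in SPF, and Nr0b2, at 0.299 in VSG and 1.26 in SPF, were lowest, and their order was reversed between the groups.

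Among the 7 libraries below the gap, the carrier, the exporter and the receptor had the highest positive Pearson coefficients with each other. No pair passed a test adjusted over all 21 pairs. The highest coefficients were Osta with Ostb (Pearson r = 0.903, exact permutation p = 0.00774, adjusted p = 0.103, Spearman rho = 0.821 with exact permutation p = 0.0341 and adjusted p = 0.278, n = 7) and Ostb with Nr1h4 (r = 0.877, exact permutation p = 0.00992, adjusted p = 0.103, rho = 0.857 with exact permutation p = 0.0238 and adjusted p = 0.278, n = 7). Without the 2 libraries farthest from the median of the first gene of the pair, r was 0.773 and 0.772. Fabp6 with Osta had r = 0.87 (exact permutation p = 0.0171, adjusted p = 0.103) and rho = 0.786 (exact permutation p = 0.048, adjusted p = 0.278), with r = 0.824 after that removal. The other pairs of these genes were lower after it. Fabp6 with Ostb had r = 0.553 against 0.807, and Fabp6 with Nr1h4 had 0.34 against 0.509. For Fabp6 with Nr1h4 rho was 0.357, equal to that of Fgf15 with Osta. Its r ran from 0.208 to 0.777 over the alternative settings. At the lowest, with library totals, Fgf15 with Osta was higher, at 0.413. Osta with Nr1h4 had 0.258 against 0.708, and ran from 0.498 to 0.855 over 10 alternative settings, single libraries left out included. Nr1h4 with Gpbar1 had r = -0.858 (exact permutation p = 0.0196, adjusted p = 0.103) and rho = -0.75 (exact permutation p = 0.0663, adjusted p = 0.278). After the same kind of removal its r was -0.369, and over the 10 settings it ran from -0.962 to -0.722. The removal narrows the range of the first gene, which can weaken r by itself. A weaker r after it therefore does not show that a relation rests on the removed libraries. Joined groups were used, and 4 VSG and 3 SPF libraries are too few for a value within a group.

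The coefficients of Fgf15 and Slc10a2 were closer to 0. Pearson r of Fgf15 with the other 6 members ran from -0.201 to 0.376 (exact permutation, adjusted p 0.742 to 0.912), and that of Slc10a2 with the 5 apart from Fgf15 from -0.43 to 0.0987 (adjusted p 0.742 to 0.926). At 7 libraries such values cannot show the absence of a relation. Among these libraries SPF 3 was highest in Fabp6, Osta and Ostb. In SPF 5 Slc10a2, Osta, Ostb and Nr1h4 were at their lowest of the 7, while Fgf15 was below VSG 4 and VSG 5 only. Enterocyte markers summed to 18690 to 27810 CPM in VSG and to 11340 to 27360 CPM in SPF, with 10 of 10 detected and the lowest sum in SPF 5, where smooth muscle markers were highest. The part of this in the covariation was not tested.

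**Figure D4:**
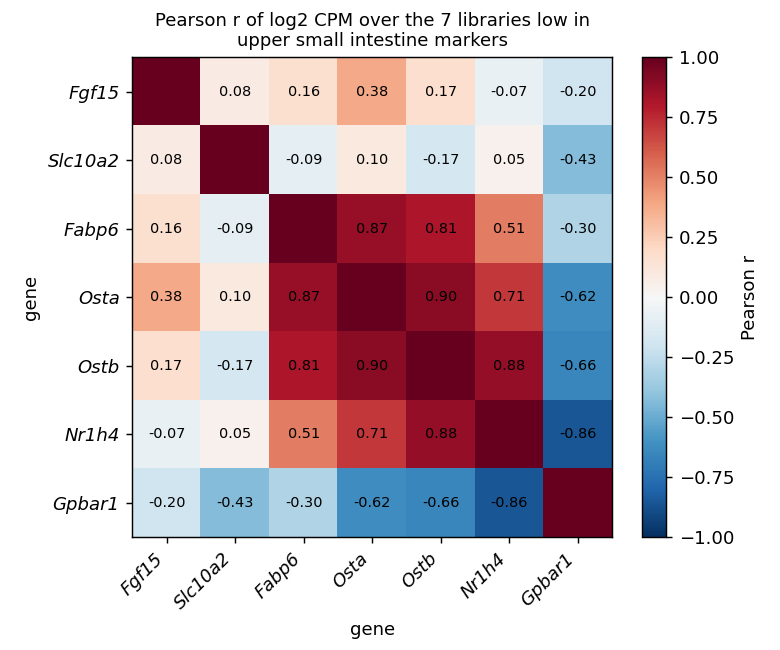
Pearson r of log2 CPM between the 7 bile acid genes past the filter, over the 7 libraries below the gap (4 VSG, 3 SPF joined), from -1 in blue to 1 in red. Fabp6, Osta, Ostb and Nr1h4 form a block between 0.51 and 0.90, Fgf15 and Slc10a2 lie between -0.43 and 0.38 with every other gene, and Gpbar1 is negative with all 6.

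The genes with the pattern most like Fgf15 and most like Fabp6 over the 7 libraries are given as a description, with no test, since the highest of many coefficients over 7 points are high by selection. Among 9239 other genes, those most like Fgf15 were Gripap1 (Pearson r = 0.943), Rbm4b (0.942), Gm16695 (0.936), Bmp2 (0.935), a secreted growth factor of the BMP family, and Araf (0.933). Of these Bmp2 covered the widest range apart from Gm16695, at 35.8 to 83.0 CPM in the 7 libraries and 12.4 to 41.9 CPM in the 3 above the gap. Those most like Fabp6 were Brp44l (0.996), a subunit of the mitochondrial pyruvate carrier, Ccdc32 (0.993), Gpx4 (0.991), a glutathione peroxidase that reduces lipid peroxides, Pxmp3 (0.991) and Mrps36 (0.991). Of these 5 Pxmp3 was lower in the 3 libraries above the gap, at 41.8 to 46.6 CPM against 47.1 to 66.8 CPM in the 7, a far smaller step than that of Fabp6. In the other 4 both sets of libraries overlapped, with Gpx4 at 265 to 378 CPM in the 3 and 153 to 309.7 CPM in the 7.

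The wider bile acid pathway was described from lists of transporters, regulators, FGF15 receptors, synthesis enzymes and other FXR-responsive genes, with 0 called in any of them. Of 9 other bile acid transporters 6 were tested, with 2 higher and 4 lower in VSG and a median log2 fold change of -0.16. Slco2b1, an organic anion uptake transporter, stood at 42.1 ± 11.3 CPM in VSG and 61.4 ± 19.5 CPM in SPF (SD, n = 5 each), and its log2 fold change was -0.54 (edgeR adjusted p = 0.977). Abcb4, a phospholipid exporter, stood at 14.0 ± 6.64 CPM in VSG and 7.73 ± 4.56 CPM in SPF, and the log2 fold change of Slc10a6, a carrier of sulphated steroids, was -0.42.

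Of 16 nuclear receptors and regulators all were tested, with 7 higher and 9 lower in VSG and a median log2 fold change of -0.02. Hnf4a, a factor of enterocyte gene expression, stood at 1182 ± 205 CPM in VSG and 956 ± 224 CPM in SPF (SD, n = 5 each). The log2 fold changes were 0.31 for Hnf4a, 0.31 for Maf, a transcription factor, and -0.13 for Rxrb, a partner of FXR. Of 7 FGF15 receptors and regulators 6 were matched and tested, with 2 higher and 4 lower and a median of -0.18. Among those with a mean of at least 1 CPM, the 3 of lowest p encode receptors of fibroblast growth factors. They were Fgfr3 (log2 fold change -0.48, edgeR adjusted p = 0.977), Fgfr2 (-0.21) and Fgfr1 (-0.16). Klb (log2 fold change -0.77) and Kl (0.46) had means under 1 CPM, at 0.473 and 0.630 CPM. The p of Klb was lower than that of Fgfr2, and the p of Kl lower than that of Fgfr1.

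Of 8 genes of bile acid synthesis and conjugation 5 were tested, with 3 higher and 2 lower and a median log2 fold change of 0.01. Cyp7a1, the rate-limiting enzyme of bile acid synthesis in liver, had 0 counts in all 10 libraries. Sult2b1, a sulphotransferase, had a log2 fold change of 0.29, Cyp7b1, a hydroxylase of oxysterols, one of -0.20, and Hsd3b7, an enzyme of bile acid synthesis, one of -0.06. Of 6 other genes known to respond to FXR ligands in mouse ileum all were tested, with 3 higher and 3 lower and a median of 0.12. Sdc1, a heparan sulphate proteoglycan, had a log2 fold change of 0.51, and stood at 110 to 117 CPM in the 3 libraries above the gap, 1 VSG and 2 SPF, against 146 to 318 CPM in the 7. Pltp, a phospholipid transfer protein, had a log2 fold change of -0.21.

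Nos2, the inducible nitric oxide synthase, had the lowest p in that list. It stood at 282, 81.5, 424, 273 and 210.2 CPM in VSG 1 to 5 and at 94.0, 14.1, 150.5, 2.90 and 47.1 CPM in SPF 1 to 5. VSG 2 was the only VSG library under any SPF library, lying below SPF 1 and SPF 3, and the groups overlapped for that reason. Means were 254 ± 124 CPM in VSG and 61.7 ± 61.0 CPM in SPF (SD, n = 5 each). The log2 fold change was 2.04 (95% interval 0.25 to 3.84, edgeR adjusted p = 0.977), which did not pass the adjusted threshold. Within the 7 libraries all 4 VSG values of Nos2 lay above all 3 SPF values, a separation that 8.12% of all genes showed in one direction or the other.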

How the data were processed

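Libraries were made with an Illumina TruSeq RNA kit and read as single-end 50-base reads, per the labels' protocols. The submitters' processing notes name the build mm9 and DESeq, without a version. The aligner, the counter and any use of strand are not given in the sources used here. The authors deposited estimated counts per gene (61.18% whole numbers) and log2 values. The deposited log2 values equal the log2 of those counts after a constant per library, minus the SPF median per gene.

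Estimated counts were rounded and fitted with edgeR 4.0.16 in R 4.3.3 (filterByExpr, TMM, quasi-likelihood F test, surgery as the only term, Benjamini-Hochberg over all genes, threshold 0.05). Log2 CPM used a prior count of 2. The code was tested on simulated data. Single values were tested by exact permutation over 252 assignments (smallest p 0.0079). Pairs of genes were tested by exact permutation of pairings within the 7 libraries. Correlations between libraries were 0.912 to 0.985. Poisson intervals cover counting error only.

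The members, the gene lists and the split into 3 and 7 libraries were chosen with earlier results of these data known. Named genes were the 8 members, the 3 of lowest p with a mean of at least 1 CPM in each pathway list, the 5 most like Fgf15 and the 5 most like Fabp6 (mean of at least 10 CPM), and Gata4 and Lct. Pdx1, Slc40a1, Cybrd1 and Cyp7a1 were named after their values were seen. Fgfr1 has 2 gene IDs, and the one with more counts was used. Alternatives were other scalings and filters, DESeq2 1.42.0, limma-voom (limma 3.58.1), a replicate block, the marker level as a covariate, libraries left out and, added after seeing the data, limma on the deposited log2 values. Exon lengths come from another build (GRCm38) than the counts, so levels per length are approximate. Summed markers of colon, liver, pancreas, lymphoid follicle and red blood cells were computed and are given once at the end.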

Additional observations from a re-analysis of the deposited data

Results flagged for a closer look

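In groups of 5, a library was set apart when its distance to the nearest other exceeded 0.71 of the range of its group, both measured on log2 CPM. Of 70 gene and group combinations examined 8 met this, and 7 of the 8 were VSG 2. A rate of about 1 in 20 holds for independent values and is no reference here. The genes vary together, and most were chosen with the split of the libraries known. VSG 2 was the only VSG library above the gap in upper small intestine markers. SPF 2 and SPF 4 stood above it together, and a rule for a single library can miss such a pair. In that library Slc10a2 (11.3 CPM), Fabp6 (38.9 CPM), Osta (343 CPM), Ostb (90.3 CPM), Abcb4 (2.71 CPM) and Sdc1 (115 CPM) were the lowest of the VSG group, and Lct, which encodes lactase of the upper small intestine, was the highest (2063 CPM). The other was Fgfr1 in SPF 3, lowest of the SPF group at 5.08 CPM.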

How the results depend on the processing

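No member was called under any of the 21 alternatives, and DESeq2 called 11 genes over all, against 0 with edgeR. With the upper small intestine marker level as a covariate the log2 fold changes of Fabp6 (-0.24) and Ostb (-0.026) changed sign, and those of Osta (0.07) and Nr1h4 (0.00) came close to 0. The cause was not tested. Leaving out each library in turn gave log2 fold changes of 0.76 to 2.13 for Fgf15, 0.67 to 1.76 for Slc10a2, 0.20 to 1.30 for Fabp6, 0.19 to 0.95 for Osta, 0.08 to 0.90 for Ostb, 0.18 to 0.88 for Nr1h4 and -0.90 to -0.18 for Gpbar1, with 0 genes called each time. The number of genes at an unadjusted edgeR p under 0.05 was 1939 without SPF 3 and 1135 without VSG 2, against 595 with all 10. Other settings gave up to 1.85 for Fgf15 (deposited log2 values with limma), 1.73 for Slc10a2 and 1.35 for Fabp6 (both limma-voom). The marker difference ran from -1.42 to -0.06 with a library left out. With the replicate number as a block 0 genes were called and Fgf15 had a log2 fold change of 0.75. The numbers are not stated to pair animals, and deviations of same-numbered libraries correlated from -0.319 to 0.182. None of the 21 gene pairs passed under any of 10 alternatives, but r of Slc10a2 with Ostb ran from -0.78 without SPF 5 to 0.47 without SPF 3. Nr0b2 and Gpbar1 rest on few counts, which limits what their values can show.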

Other observations

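Other tissues and cells were read from summed marker levels, given without explanation. Colon markers summed to 292 to 466.3 CPM in VSG and 238 to 555 CPM in SPF, and enteric neuron and glia markers to 28.01 to 57.0 CPM in VSG and 17.3 to 51.9 CPM in SPF. L cell markers, the hormone genes of distal enteroendocrine cells, summed to 78.1 to 197 CPM in VSG and 21.5 to 277 CPM in SPF, lowest in SPF 4. Lymphoid follicle B cell markers summed to 15.4 to 172 CPM in VSG and 8.30 to 225 CPM in SPF. Liver markers summed to 196 to 480.4 CPM in VSG and 226 to 711 CPM in SPF, nearly all of it Cps1, which enterocytes also express, while Alb reached at most 10.4 CPM in VSG and 1.11 CPM in SPF. Exocrine pancreas markers summed to 4.95 to 12.9 CPM in VSG and 3.83 to 8.22 CPM in SPF, and red blood cell markers to 27.2 to 100.4 CPM in VSG and 57.8 to 128 CPM in SPF. No gene of these lists was called.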
